A study of Mus musculus with 10 samples.

Results

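Cytosolic heat-shock chaperones refold misfolded proteins in the cytoplasm and keep new ones from aggregating. HSP70 binds and releases unfolded stretches in an ATP cycle, J-domain proteins (HSP40) bring the client and trigger hydrolysis, HSP110 and BAG proteins exchange the nucleotide, and HSP90 takes over clients that are close to folded. Heat-shock factor 1 (HSF1) induces many of these genes under stress. Neurons do not divide and depend on this system to hold back aggregates.

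The 10 genes described here are Hsp90aa1 and Hsp90ab1 (HSP90), Hspa4, Hspa4l and Hsph1 (HSP110), Dnajb1, Dnajb4 and Dnajb6 (J-domain proteins), Bag3 (a BAG cochaperone) and Hsf1. They were selected on the measured log2 differences between KCl and untreated cultures in RNAseq, RF and TE, as a list named after earlier results of these libraries were known, and all of their Ensembl transcripts in the count files were taken. These are 14 of 22534 transcripts, and the genes are 10 of 13184. Of the 14 transcripts, 9 transcripts of 7 genes passed the filter on low values and are called measured, as were 7262 transcripts of 4369 genes in all. The other 5 belong to Hsp90aa1, Dnajb6 and Hsf1, and their values are given as well. Because the list was chosen with the KCl contrast in view, its values are a description, and no p is given for a single member.

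Cultures of neurons and glia were prepared from the brain cortex of newborn FVB mice and grown for 7 days. The 3 untreated cultures (1, 2 and 3) received nothing, and the 2 KCl cultures (4 and 5) were depolarized with 55 mM KCl for 3 h. Each culture was lysed after cycloheximide, which stalls ribosomes, and gave 1 RNAseq library and 1 library of ribosome-protected fragments (ribosome footprinting, RF). The cultures are a mixture of cell types, so that fewer cells of a type and less RNA per cell cannot be told apart, and the labels do not state whether the cultures came from different litters.

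For RNAseq, reads on every region of a transcript were summed, and for RF those on the coding sequence (CDS). Both are given as normalized RPKM, the reads per kilobase scaled to the TMM-adjusted size of the library (CPM over length, with the library size taken over measured transcripts). Translation efficiency (TE) is the RF value over the RNAseq value of the same culture. Errors of means are SD with n = 3 untreated or n = 2 KCl cultures, and errors of log2 differences are SE from the edgeR fit.

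RNAseq libraries held 3056286 to 3629959 reads and RF libraries 1463654 to 7719915, with the fewest footprints in untreated culture 3 and KCl culture 4. Fos, an immediate early gene, had 31.5 to 42.9 normalized CPM in untreated and 107 to 118 in KCl cultures in RNAseq (edgeR adjusted p = 2.86e-09). The summed RNAseq level of 7 astrocyte markers was 12240 to 12900 CPM in untreated and 10050 to 10160 in KCl cultures, and 3 of the 7 genes fell. Neuronal markers summed to 538 to 820 and 674 to 680 CPM, oligodendrocyte lineage markers to 1499 to 1636 and 1446 to 1458, and fibroblast and pericyte markers to 566 to 673 and 463 to 526. Microglial markers summed to 127 to 154 and 104 to 136 CPM. Endothelial markers were near 0, with sums of 19.3 to 32.8, and Pecam1 and Tek had no read in at least 1 library. The part that these marker levels have in the differences below was not tested.

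Heat-shock elements, the DNA sites of HSF1, are shown for the genes in whose promoters the search found the closest matches. The element was searched as 3 units, GAA, TTC and GAA or TTC, GAA and TTC, each 2 bases from the next, on both strands of the RefSeq promoter windows (GRCm38.p6), which run from 250 bases before to 50 after an annotated start. Windows were held for 7 of the 10 genes (Hspa4, Hspa4l, Hsph1, Dnajb1, Dnajb4, Dnajb6 and Bag3), not for Hsp90aa1, Hsp90ab1 and Hsf1. All 9 fixed letters were found in Dnajb6 and Hsph1, and 0.603% of all 32851 windows hold such a match. Dnajb4 matched 8 of the 9 letters in the window of the sequence printed below, and 7.22% of all windows match at least 8. In another Dnajb4 window the best match had 6 letters. This search for partial matches was added after the search for full ones. The best matches in Bag3 and Hspa4 had 7 letters, and 47.0% of all windows match at least 7. That in Dnajb1 had 6 letters and that in Hspa4l 5. In the 3 sequences, capitals mark the letters that match.
Dnajb6, chr5:29735846-29735870, plus strand: ctccgaGAAtcTTCcgGAAcgctag
Hsph1, chr5:149636282-149636306, minus strand: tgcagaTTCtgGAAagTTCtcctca
Dnajb4, chr3:152193841-152193865, minus strand: tcgctgTTCtaGAAagTaCagagac
The Dnajb6 match begins 143 bases before the start of transcript Dnajb6-202 and 164 bases after that of Dnajb6-201, inside the 5′UTR of the latter. It begins 46 and 127 bases before the RefSeq starts of the Dnajb6 windows. The Hsph1 match begins 91 bases before the start of Hsph1-201, but 15 and 36 bases after the RefSeq starts of the Hsph1 windows. The Dnajb4 match begins 14 bases before the start of Dnajb4-202. A match is a string of letters, not a measured HSF1 site.

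Before KCl, the 7 measured genes spanned a wide range of RNA levels and of TE. Hsp90ab1 had the highest RNAseq mean, 162 ± 17.4 normalized RPKM, above 94.3% of the 7262 measured transcripts, and the lowest TE of the 7, 0.730 ± 0.152, above 8.44% of them. Dnajb4 had the lowest RNAseq mean, 24.8 ± 4.38, below the median of all measured transcripts of 27.1, and the highest TE, 4.55 ± 1.09, above 91.7% of them.
In RNAseq the order after Hsp90ab1 was Bag3 (98.5 ± 17.8), Hsph1 (86.4 ± 9.89), Hspa4 (61.0 ± 6.61), Dnajb1 (48.0 ± 10.04), Hspa4l (26.3 ± 3.95) and Dnajb4. The cultures of Bag3 and Hsph1, of Hspa4 and Dnajb1, and of Hspa4l and Dnajb4 overlapped.
In RF, Hspa4 was highest at 226 ± 8.13 and Dnajb1 lowest at 56.0 ± 5.75, with Hsph1 at 146 ± 7.82. Bag3 (125 ± 9.23), Hsp90ab1 (117 ± 14.5), Hspa4l (111 ± 10.7) and Dnajb4 (110 ± 5.999) overlapped between cultures.
TE fell into a high set, Dnajb4, Hspa4l (4.28 ± 0.793) and Hspa4 (3.74 ± 0.496), whose cultures overlapped. A lower set held Hsph1 (1.70 ± 0.148), Bag3 (1.30 ± 0.283), Dnajb1 (1.22 ± 0.381) and Hsp90ab1, against a median of 1.81 over all measured transcripts. These sets depend on counting RNAseq reads of all regions, of which 95.6% in Hsp90ab1 and 91.7% in Dnajb1 lay on the 3′UTR. On the CDS alone, Hsp90ab1 averaged 6.44 normalized RPKM in RNAseq (32 to 39 reads per library) beside 117 in RF. Dnajb1 had 11.5 beside 56.0, and Hspa4 93.9 beside 226. By CDS reads, Hsp90ab1 and Dnajb1 would rank above Hspa4 in TE, so the sets do not hold on that measure.

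**Figure D1:**
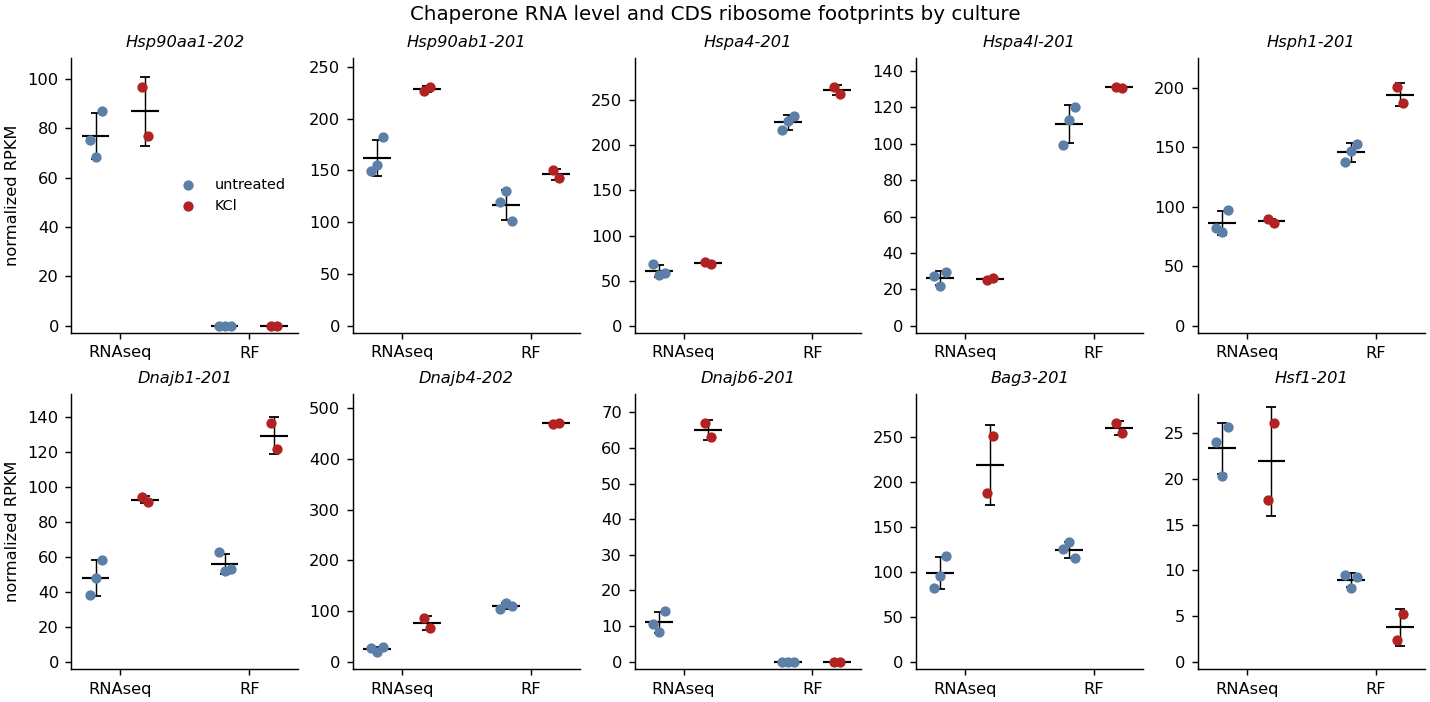
Normalized RPKM of each of the 10 genes (the transcript with the most RNAseq reads) in RNAseq and in RF. Blue points are untreated cultures (n = 3), red points KCl cultures (n = 2), bars the mean and SD. Both KCl points lie above all untreated points in RF for the 7 measured genes, Dnajb6 shows this in RNAseq with no CDS footprint, and Hsf1 lies lower in RF.

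With KCl, footprints on the CDS of all 7 measured chaperone genes were higher in both KCl cultures than in any untreated culture. RNA was higher without overlap for 4 of them, Dnajb4, Bag3, Dnajb1 and Hsp90ab1, and overlapped the untreated range for Hspa4, Hspa4l and Hsph1. In RNAseq, 6 of 9 transcripts passed as higher and 0 as lower (edgeR, adjusted p under 0.05). Of all measured transcripts, 17.9% passed as higher and 15.1% as lower, and in 27.6% both KCl cultures were above all untreated ones, as in the same 6 chaperone transcripts. In RF, 9 of 9 passed as higher and 0 as lower, against 20.8% and 20.1% of all transcripts, and both KCl cultures were above all untreated ones in 9 of 9, against 30.2% of all. Nothing is read from these counts, since the contrast was known when the list was made. At an unadjusted p under 0.05 the counts as lower were 0 in both assays, also with DESeq2. In RF, 7 of the 9 passed as higher with DESeq2 and 6 with library totals. With filterByExpr or with no filter, which bring in further member transcripts, Hsf1 passed as lower in RF. The median log2 difference over the 7 genes was 0.49 in RNAseq and 0.42 in RF, beside -0.00450 and -0.00995 over all measured transcripts. With library totals in place of TMM, the medians over all transcripts moved to -0.084 and -0.113. Without KCl culture 4, and likewise without KCl culture 5, 6 of 9 transcripts passed in RF.

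**Figure D2:**
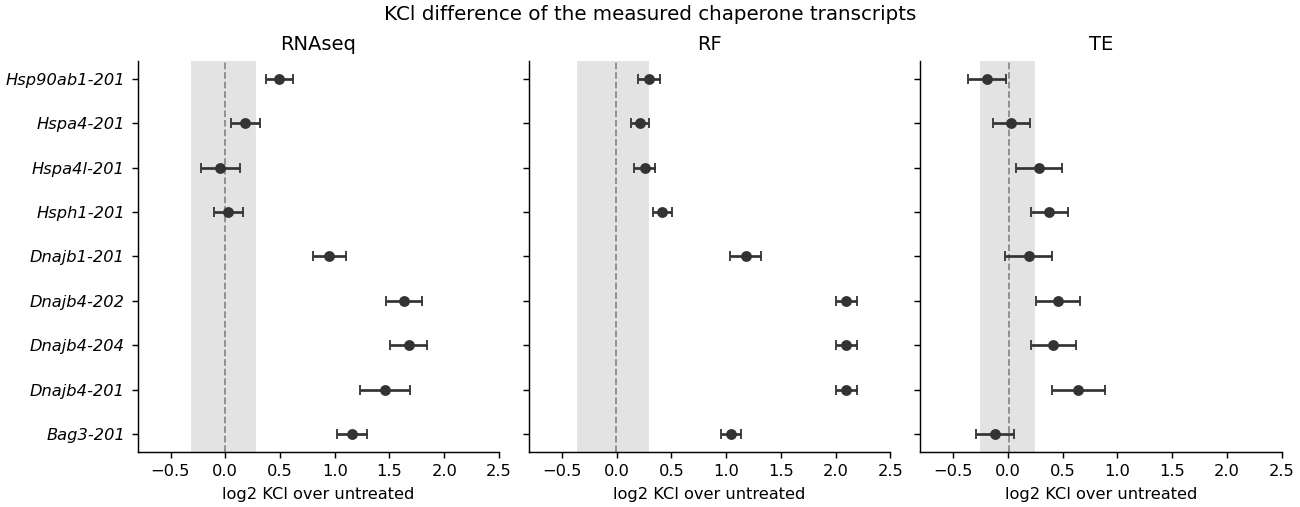
Log2 difference of KCl over untreated with its SE for the 9 measured chaperone transcripts in RNAseq, RF and TE. The dashed line is the median and the grey band the middle 50% of all 7262 measured transcripts. In RNAseq the 3 HSP110 genes lie inside the band while Dnajb1, Dnajb4 and Bag3 lie beyond 0.9, and in RF the latter 3 lie beyond 1.0. In RF Hspa4 and Hspa4l lie inside the band as well, while Hsph1 and Hsp90ab1 lie above it.

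In size, the log2 differences in TE were below those in RNAseq and in RF for Hsp90ab1, Hspa4, Dnajb1, Dnajb4 and Bag3, not for Hspa4l and Hsph1, and none of the 9 transcripts passed in either direction (edgeR interaction of assay and treatment, culture as a block), where 1.53% of all measured transcripts passed as higher and 4.27% as lower. At an unadjusted p under 0.05, 4 transcripts were higher with edgeR and 2 with DESeq2, 0 were lower with either tool, and DESeq2 gave 0 at an adjusted p. The 4 were Hsph1-201 and Dnajb4-202, Dnajb4-204 and Dnajb4-201, and these Dnajb4 transcripts carry the same CDS footprints. The share of all transcripts at the unadjusted threshold was not computed. Both KCl cultures were above all untreated ones in 2 of 9 transcripts, Hsph1-201 and Dnajb4-201, against 15.7% of all. Without untreated culture 2, Dnajb4-202 and Dnajb4-201 passed as higher. Nothing is read from these calls and counts either, since the contrast was known when the list was made. The median log2 difference in TE was 0.19 over the 7 genes and 0.0116 over all transcripts.

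Dnajb4, a J-domain protein that stimulates HSP70, had the largest difference of the measured genes. Its gene lies on chromosome 3 of GRCm38, and Dnajb4-202 runs from 152183955 to 152193845 on the minus strand. In RNAseq, Dnajb4-202 had 26.2, 19.9 and 28.4 normalized RPKM in untreated cultures 1, 2 and 3 and 87.1 and 67.1 in KCl cultures 4 and 5. Its RF values were 104, 116 and 110 in untreated and 470 and 471 in KCl cultures. The groups were far apart in both assays, a log2 difference of 1.63 (SE 0.16) in RNAseq and 2.10 (SE 0.10) in RF, where the KCl mean was 4.28 times the untreated mean. TE was 3.97, 5.81 and 3.88 in untreated and 5.39 and 7.03 in KCl cultures, which overlap (log2 0.46, SE 0.20).
The 3 Dnajb4 transcripts share 1 CDS of 1011 nt, and the same reads were counted on each of them, so they are not separate observations. They differ in their 5′ ends. Dnajb4-202, which starts just after the partial match printed above, had 78, 74 and 18 footprints on its 5′UTR in untreated and 52 and 119 in KCl cultures. Dnajb4-204 had 7, 12 and 3 and then 6 and 18, and Dnajb4-201 had 7, 10 and 3 and then 6 and 17. Most 5′UTR footprints thus lay on the 5′UTR of Dnajb4-202 in every culture. The counts of Dnajb4-204 and Dnajb4-201 were nearly alike. Whether the same reads were counted on more than 1 of these 5′UTRs was not tested. On the scale of RPKM, 5′UTR footprints of Dnajb4-202 averaged 58.6 in untreated and 197 in KCl cultures. In RNAseq this 5′UTR held at most 15 reads in a library. Log2 differences in RNAseq ranged from 1.46 for Dnajb4-201 to 1.67 for Dnajb4-204.

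Bag3 links HSP70 to small heat-shock proteins and to the removal of aggregates by autophagy. Bag3-201 (chromosome 7, 128523616 to 128546981, plus strand) had 82.5, 95.3 and 118 normalized RPKM in RNAseq of untreated cultures and 188 and 251 in KCl cultures. In RF it had 125, 134 and 115, and then 266 and 255. The KCl values were higher without overlap in both assays, and the log2 differences were close, 1.16 (SE 0.14) in RNAseq and 1.05 (SE 0.09) in RF. TE overlapped, with 1.30 ± 0.283 in untreated and 1.22 ± 0.283 in KCl cultures.
The RNA of Bag3 was not higher by the same factor along the transcript. RNAseq reads per nt of the CDS over those of the 3′UTR were 0.899, 0.897 and 0.726 in untreated and 0.466 and 0.624 in KCl cultures, with no overlap. The median of this ratio over the 6423 measured transcripts with both UTRs of at least 50 nt was 0.661, 0.658 and 0.628 in untreated and 0.585 and 0.623 in KCl cultures. These medians were thus also lower in both KCl cultures than in any untreated one. How many of the 6423 transcripts separate the groups in this ratio was not counted. With RNAseq reads on the CDS alone, the log2 difference of Bag3 in RNAseq was 0.98, and that in TE changed from -0.12 to 0.07. This alternative was chosen after the data were seen. For Dnajb4-202 it gave 1.47 in RNAseq and 0.63 in TE, beside 1.63 and 0.46 with all reads. The CDS to 3′UTR ratio also fell without overlap in Dnajb4-202. It was 0.632, 0.636 and 0.586 in untreated and 0.483 and 0.484 in KCl cultures. In Hspa4 the ratio rose without overlap, from a mean of 4.04 ± 0.734 to 5.32 ± 0.459. The groups overlapped in Hsp90ab1, Hsph1 and Dnajb1.

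Dnajb1, the best known stress-induced J-domain partner of HSP70, is encoded on chromosome 8 from 83608193 to 83612653, plus strand. Its RNAseq values were 38.1, 47.8 and 58.1 normalized RPKM in untreated and 94.2 and 91.4 in KCl cultures. In RF they were 62.6, 52.2 and 53.2, and then 137 and 122. Both assays separated the groups, by 0.95 (SE 0.15) in RNAseq and 1.18 (SE 0.14) in RF on the log2 scale, while TE overlapped (0.19, SE 0.21). The RF values rest on 58 to 369 footprints per library. Only 8.20% of its RNAseq reads in untreated cultures lay on the CDS and 91.7% on the 3′UTR. With CDS reads alone, 27, 34 and 28 in untreated and 60 and 92 in KCl cultures, the log2 difference in RNAseq was 1.36 and that in TE turned to -0.16.

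Hsp90ab1, the constitutive cytosolic HSP90, had the smallest RNA difference of the 4 genes whose groups did not overlap. Hsp90ab1-201 (chromosome 17, 45567775 to 45573271, minus strand) had 150, 155 and 182 normalized RPKM in RNAseq of the untreated and 226 and 231 in KCl cultures. Footprints were 119, 130 and 101 in untreated and 150 and 142 in KCl cultures. The log2 difference was 0.49 (SE 0.13) in RNAseq and 0.30 (SE 0.10) in RF, and TE overlapped (-0.19, SE 0.17). In RF it did not pass with library totals, with counts summed per gene, nor without untreated culture 3, KCl culture 4 or KCl culture 5. In RNAseq it did not pass with CDS reads alone, 32 to 60 per library. The log2 differences with CDS reads alone were 0.66 in RNAseq and -0.34 in TE.
The reads of Hsp90ab1 were distributed unlike those of most transcripts. In untreated RNAseq, 95.6% lay on the 243 nt of the 3′UTR and 3.43% on the 2172 nt of the CDS, so that CDS reads per nt were 0.00403 ± 0.000605 of those of the 3′UTR. In RF, reads per nt of the 5′UTR were 2.97 ± 0.372 times those of the CDS, where the median over transcripts was between 0.277 and 0.438 in the 5 cultures. Of the stretches of 30 nt in its CDS, 450 of 2143 also occur in another annotated gene, and 16 of these 17 genes are pseudogenes. The authors removed repeated sequence from the transcriptome before aligning, and the effect of that step on this gene was not tested.

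Hsp90aa1, the stress-inducible cytosolic HSP90, had RNA but no footprint on its CDS. Hsp90aa1-202 (chromosome 12, 110690605 to 110696395, minus strand) had 634, 575 and 699 RNAseq reads in untreated and 773 and 690 in KCl cultures, 75.2, 68.4 and 87.1 and then 96.8 and 77.1 normalized RPKM over the whole transcript. The groups overlapped (log2 0.23, SE 0.14, in a fit of all transcripts with a read). All these reads lay on the 3′UTR and the unnamed region, and for the 2199 nt of the CDS no read is listed in any RNAseq or RF library. Of the stretches of 30 nt in this CDS, 91.9% (1995 of 2170) also occur in another annotated gene, most of them in the pseudogene Gm12346, and 4 occur in Hsp90ab1. In the 3′UTR the share was 0.770%. With no CDS reads listed, neither translation nor TE of Hsp90aa1 can be described from these counts, and the second transcript, Hsp90aa1-201, carries nearly the same reads.

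**Figure D3:**
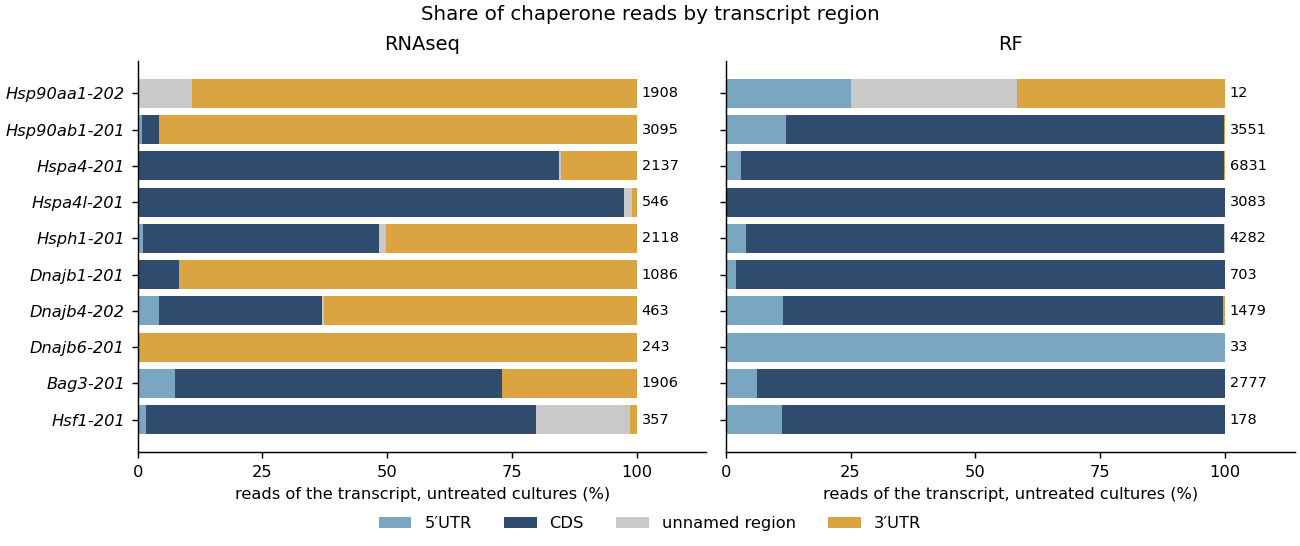
Share of the reads of each chaperone transcript on the 5′UTR, the CDS, an unnamed region and the 3′UTR, in RNAseq (left) and RF (right), summed over the 3 untreated cultures, with the number of reads at the end of each bar. RNAseq reads of Hsp90aa1-202, Hsp90ab1-201, Dnajb1-201, Dnajb4-202, Dnajb6-201 and Hsph1-201 lie more on the 3′UTR than on any other region, and Hsp90aa1 and Dnajb6-201 have no read on the CDS in either assay.

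Dnajb6, a J-domain protein known for suppressing the aggregation of polyglutamine proteins, had the largest RNA difference of the 10 genes and could not be followed into translation. Dnajb6-201 (chromosome 5, 29735688 to 29786478, plus strand) had 79, 62 and 102 RNAseq reads in untreated and 476 and 502 in KCl cultures. As normalized RPKM these were 10.5, 8.29 and 14.3, and then 67.0 and 63.0, a log2 difference of 2.62 (SE 0.17) in the fit of all transcripts with a read. Nearly all lay on the 3′UTR, 79, 62 and 101 and then 474 and 500, and no CDS read is listed in either assay.
Footprints of Dnajb6-201 were listed on its 5′UTR, 17, 13 and 3 in untreated and 2 and 1 in KCl cultures, and 249 nt of this transcript overlap Gm5129 on the opposite strand. In its CDS, 98.2% of the stretches of 30 nt also occur in another gene, and in that of the shorter Dnajb6-202 42.4% do. Dnajb6-202 had 3, 0 and 4 RNAseq reads in untreated and 9 and 13 in KCl cultures, and 1, 3 and 0 and then 3 and 6 CDS footprints. Normalized to the libraries, its RF values were 0.221, 0.778 and 0 in untreated and 3.41 and 3.55 in KCl cultures. KCl values were higher without overlap in both assays, but on at most 13 RNAseq reads and 6 footprints per library, and nothing is read from them.

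The HSP110 proteins, nucleotide exchange factors of HSP70 that also hold unfolded proteins, differed from each other in how RNA and footprints compared. Hsph1 and Hspa4l had log2 differences near 0 in RNAseq and above it in RF, and in Hspa4 the differences were alike in both assays. Hsph1-201 (HSP105, chromosome 5, 149616845 to 149636209, minus strand) had 82.5, 79.1 and 97.7 normalized RPKM in RNAseq of the untreated and 89.5 and 86.6 in KCl cultures. In RF it had 137, 147 and 153, and then 201 and 188. RNA overlapped (log2 0.03, SE 0.13), while RF did not (0.42, SE 0.09). TE of Hsph1 was 1.67, 1.86 and 1.57 in untreated and 2.24 and 2.17 in KCl cultures, again without overlap, and its log2 difference of 0.38 (SE 0.17) did not pass across all transcripts. It lay between 0.33 and 0.45 under the alternatives tried.
Hspa4-201 (APG-2, chromosome 11, 53259814 to 53300457, minus strand) had 68.5, 56.0 and 58.5 normalized RPKM in RNAseq of the untreated and 70.4 and 68.0 in KCl cultures, which overlap. In RF, 217, 228 and 233 stood beside 265 and 257. The log2 difference in RF was 0.21 (SE 0.08), the smallest of the 7 genes, and 0.11 with library totals. TE was 3.74 ± 0.496 and 3.78 ± 0.0146.
Hspa4l-201 (APG-1, chromosome 3, 40745868 to 40789584, plus strand) had 27.5, 21.9 and 29.5 in RNAseq of the untreated and 24.9 and 26.0 in KCl cultures. Its RF values were 99.3, 113 and 120 in untreated and 131 and 131 in KCl cultures. The groups overlapped in RNAseq (log2 -0.05, SE 0.18) and not in RF (0.26, SE 0.10), and TE overlapped (0.28, SE 0.21). On the 95 nt of its 5′UTR no read is listed in any RNAseq or RF library, so its 5′UTR occupancy cannot be described. Hspa4 and Hspa4l did not pass in RF with DESeq2, with library totals, with all 10 libraries in 1 fit, with counts summed per gene, or without untreated culture 1, KCl culture 4 or KCl culture 5.

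**Figure D4:**
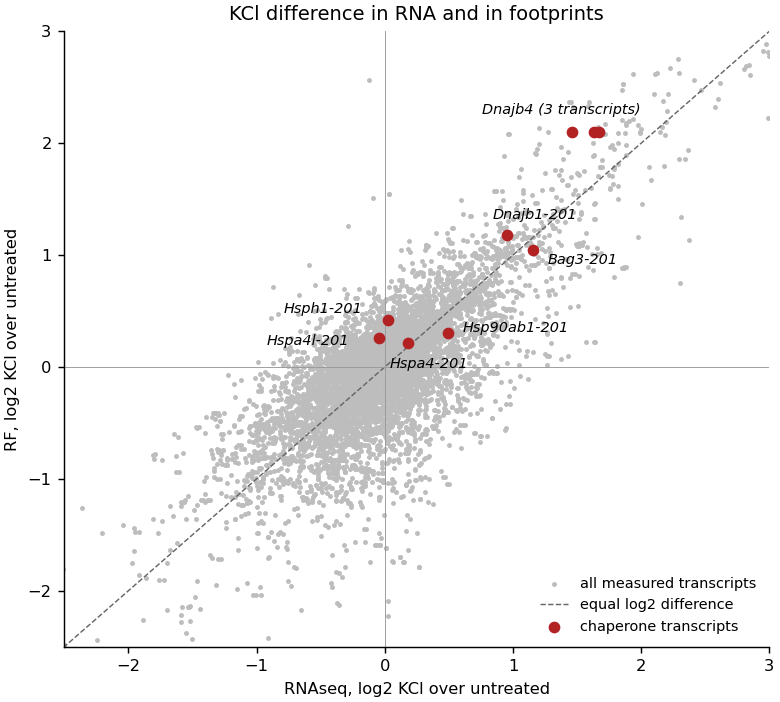
Log2 difference of KCl over untreated in RF against that in RNAseq for the 7262 measured transcripts (grey, 37 of them outside the axes), with the 9 chaperone transcripts in red and the line of equal differences dashed. Hsph1 and Hspa4l lie above the line near an RNAseq difference of 0, and Bag3 and Hsp90ab1 lie below it.

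Hsf1, the transcription factor of the heat-shock response, had the opposite direction in RF. Hsf1-201 (chromosome 15, 76477445 to 76500972, plus strand) did not pass the filter, and its normalized RF values were below 10 in every culture. In RNAseq it had 24.1, 20.3 and 25.7 normalized RPKM in untreated and 17.7 and 26.2 in KCl cultures, which overlap (log2 -0.03, SE 0.21). CDS footprints numbered 83, 60 and 15 in untreated and 4 and 17 in KCl cultures, or 9.52, 8.08 and 9.31 and then 2.36 and 5.23 normalized RPKM. These did not overlap, with a log2 difference of -1.02 (SE 0.37) in RF and -1.12 (SE 0.44) in TE from the fit of all transcripts with a read. Hsf1 passed as lower in RF in that fit and with filterByExpr, and did not pass in TE in either. Like the other calls of members, these are a description of a list chosen with the contrast known.
On the 156 nt of its 5′UTR, Hsf1 had 13, 4 and 3 footprints in untreated and 9 and 16 in KCl cultures. Scaled to the libraries as normalized RPKM, these were 14.4, 5.21 and 18.0, and then 51.3 and 47.6, without overlap. The 5′UTR to CDS ratio of footprints per nt was 1.52, 0.645 and 1.93 in untreated and 21.8 and 9.10 in KCl cultures. The groups are apart, but the KCl values rest on 4 and 17 CDS footprints.

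The other chaperone genes were taken from a list of 84 genes in 7 groups without the 10 members. Of these, 66 genes were listed and 40 measured, with 54 transcripts. In RNAseq 3 transcripts rose and 3 fell, in RF 16 rose and 4 fell, and in TE 0 rose and 2 fell (edgeR, adjusted p under 0.05). The shares of all measured transcripts given above are 17.9% and 15.1% for RNAseq, 20.8% and 20.1% for RF, and 1.53% and 4.27% for TE. The 2 falls in TE were Bag1-201 and Bag1-202, which are transcripts of 1 gene. With library totals the split was 2 and 4 in RNAseq and 11 and 10 in RF. In TE, 6 transcripts were higher and 4 lower at an unadjusted p under 0.05 with edgeR, and 3 and 2 with DESeq2. At an adjusted p, 0 were higher and 2 lower with either tool. The 6 include Cct3-201 and Cct3-204, and Hspa13-201 and Hspa13-202, so that a gene can count more than once. The share of all transcripts at the unadjusted threshold was not computed. Without KCl culture 5 the calls were 3 in RNAseq and 11 in RF, without untreated culture 2 RF had 17 rises and 10 falls, and without untreated culture 1 there were 4 in TE. Counted as 1 transcript per gene, 3 genes rose and 2 fell in RNAseq, and 13 rose and 3 fell in RF.

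Members of the list that stand next to the 10 genes in the folding cycle were found on both sides. Hspb8, a small heat-shock protein that forms a complex with Bag3, rose in RNAseq by 0.88 (SE 0.13, adjusted p = 1.01e-06) and in RF by 0.75 (SE 0.09, adjusted p = 5.7e-08) on the log2 scale. Its RNAseq values were 328, 418 and 390 normalized RPKM in untreated and 602 and 792 in KCl cultures. Stip1 (HOP), which passes clients from HSP70 to HSP90, rose by 0.36 in RNAseq (SE 0.14, adjusted p = 0.046) and 0.47 in RF (SE 0.08, adjusted p = 5.39e-05). Among HSP90 cochaperones Cdc37, which loads kinases, rose in RF by 0.45 (SE 0.11, adjusted p = 0.00229), and the other 7 of 9 measured genes did not pass in RF.
Bag1, an exchange factor of HSP70 and a relative of Bag3, was the only gene of the list that passed in TE. Its RNAseq values were 122, 124 and 129 normalized RPKM in untreated and 144 and 141 in KCl cultures, and its RF values 73.6, 71.5 and 72.1 and then 35.9 and 35.7. TE was 0.602, 0.576 and 0.560 in untreated and 0.250 and 0.253 in KCl cultures. RF fell by 1.02 (SE 0.16, adjusted p = 1.09e-05) and TE by 1.21 (SE 0.24, adjusted p = 6.3e-05) on the log2 scale, while RNAseq, at 0.19, did not pass. The heat-shock factor Hsf2 rose in RF by 0.57 (SE 0.14, adjusted p = 0.00124).

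Both measured HSP70 genes rose in RF, Hspa13, an HSP70 of the endoplasmic reticulum, by 0.94 (SE 0.11, adjusted p = 5.04e-08) and Hspa2 by 0.28 (SE 0.09, adjusted p = 0.0115). Of 5 measured J-domain genes outside the 10, Dnaja2 rose in RF by 0.31 (SE 0.09, adjusted p = 0.00746) and Dnajb5 fell by 0.72 (SE 0.23, adjusted p = 0.014). The chaperonin TRiC and its helper prefoldin, which fold actin and tubulin, had 11 measured genes. In RF 4 of these rose, with the largest differences in Pfdn2 (0.55, SE 0.14, adjusted p = 0.00193), Pfdn4 (0.50, SE 0.15, adjusted p = 0.0074) and Cct5 (0.41, SE 0.08, adjusted p = 0.000183). In RNAseq Cct8 alone of the 11 rose, by 0.49 (SE 0.14, adjusted p = 0.00571).
Among small heat-shock proteins Hspb6 fell in RNAseq by 0.77 (SE 0.14, adjusted p = 3.37e-05). In mitochondria, Hspa9, the HSP70 of the matrix, and its exchange factor Grpel1 rose in RF by 0.63 (SE 0.16, adjusted p = 0.0029) and 0.45 (SE 0.13, adjusted p = 0.00761). The J-domain protein Dnaja3 fell in RNAseq by 1.23 (SE 0.21, adjusted p = 1.13e-05) and in RF by 0.87 (SE 0.19, adjusted p = 0.000395).

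**Figure D5:**
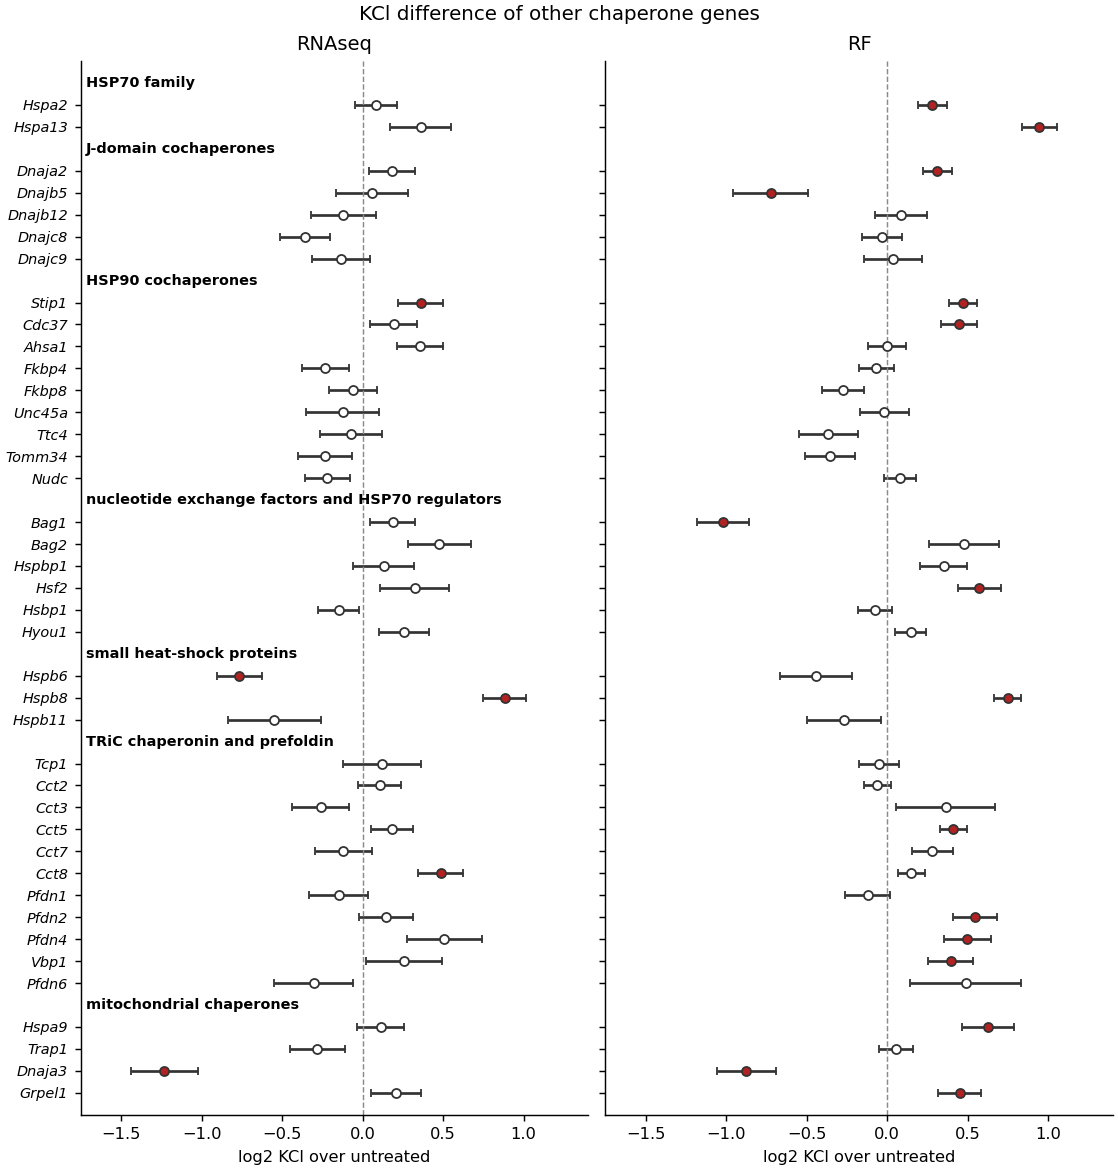
Log2 difference of KCl over untreated with its SE in RNAseq (left) and RF (right) for the 40 measured genes of the chaperone list, 1 transcript per gene, by group. Filled points passed at an adjusted p under 0.05 (edgeR), 5 in RNAseq and 16 in RF. Hspb8 and Stip1 are filled to the right of 0 in both panels and Dnaja3 to the left in both.

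Several of the HSP70 genes that work with the 10 could not be measured. These genes were picked after their values were seen. For Hspa8, the constitutive HSP70, no RNAseq read and no CDS footprint is listed on the transcript. Hspa1a and Hspa1b, the stress-inducible pair, had 6, 12 and 14 and 14, 2 and 10 RNAseq reads in untreated and 20 and 13 and 7 and 11 in KCl cultures, with no CDS read in either assay. Dnaja1 had 327 to 406 RNAseq reads per library and likewise none on the CDS. Ptges3, an HSP90 cochaperone, and Hspb1, a small heat-shock protein, also had RNAseq reads and no CDS read in either assay. Their RNAseq log2 differences were -1.16 (adjusted p = 0.000393) and -1.31 (adjusted p = 0.00145) in the edgeR fit of all transcripts with a read. Other unmeasured genes of the list went both ways in RNAseq in this edgeR fit. Dnajb9 rose by 1.99 (adjusted p = 2.89e-27), Grpel2 by 0.78 (adjusted p = 0.00299) and Chordc1 by 0.66 (adjusted p = 0.00612). Fkbp5 fell by 1.37 (adjusted p = 9.75e-06) and Dnajb14 by 0.59 (adjusted p = 0.0109).

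The genes whose profile over the 10 libraries was nearest to the median profile of the 7 measured genes were Ywhae, Bpgm, Slco1c1, Pafah1b2 and Hbs1l. Their root mean square differences from it were 0.0587 to 0.0894 in log2 normalized CPM centred on the untreated mean of each assay. Their log2 differences were 0.43 to 0.58 in RNAseq and 0.30 to 0.44 in RF, beside 0.49 and 0.42 for the median of the 7 genes.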

How the data were processed

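RNAseq and RF libraries of 3 untreated and 2 KCl cultures were analysed, grouped by their labels. The authors left out a further KCl replicate with a small library. They used Trimmomatic 0.32 for trimming, STAR 2.3.1z8 to discard rRNA reads, and aligned with Bowtie2 2.2.2 to an mm10 transcriptome from which degenerate sequence had been removed, kept multi-mapped reads, and counted with BEDTools 2.20.1. The deposited values are raw counts of reads per transcript region, and regions without a read are not listed. The regions carry letters, of which 5′UTR, CDS and 3′UTR were assigned from read shares and annotated lengths and 1 remains unnamed.

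Names, coordinates and region lengths came from GENCODE M21 (GRCm38), which held 22172 (98.4%) of 22534 transcripts. Measured transcripts had at least 10 RPKM in RNAseq and in RF of 1 culture, for 2 or more cultures. Differences were tested with edgeR 4.0.16 (R 4.3.3, quasi-likelihood, TMM within the assay, Benjamini-Hochberg over 7262 transcripts), without a block for RNAseq and RF and with culture as a block for TE. Same-numbered RNAseq and RF libraries come from 1 lysate by the extraction protocol. Deviations of their log2 values from the group means correlated with r = -0.0748, -0.0514 and 0.0656 in the untreated and 0.0246 in the KCl cultures. SE are the log2 difference over the square root of F. Values of unmeasured genes come from the same fit over all transcripts with a read. The p-values measure only the spread between these cultures. The fits were tested on simulated data.

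The members and lists were chosen with earlier results of these data known. Named are all members by the transcript with the most RNAseq reads, up to 3 rises and falls per group of the chaperone list and assay, 5 nearest profiles and Fos. Alternatives were DESeq2 1.42.0, library totals, filters, counts per gene, other fits, and leaving out each culture.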

Additional observations from a re-analysis of the deposited data

How the results depend on the processing

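Of 252 recomputed log2 differences of the 7 measured genes, 242 moved by less than 1 SD between cultures (within groups, log2) and 10 by more, and none that had passed changed sign. All 7 genes kept a higher RF under every alternative run, from 0.11 for Hspa4 to 2.17 for Dnajb4 on the log2 scale. Counted per gene, 4 of 7 chaperone genes passed in RF (Hsph1, Dnajb1, Dnajb4 and Bag3), beside 9 of 9 transcripts. Leaving out 1 culture at a time, calls among the members numbered 6 to 9 in RF and 0 to 2 in TE. For the chaperone list, leaving out 1 culture gave 3 to 8 calls in RNAseq (6 with all), 11 to 27 in RF (20 with all) and 2 to 4 in TE (2 with all). Its calls were 18 in RNAseq and 39 in RF without a filter beyond 1 read, 15 and 38 with filterByExpr, and 11 in RNAseq with all 10 libraries in 1 fit. Without a filter more transcripts were tested. Counts summed per gene gave 1 call in TE. Without the replicate block, TE had 0 calls among the members and 3 in the list, and the block changed no other call reported here. The cause of the other moves was not tested. RF of Hsf1 rests on 15 CDS footprints in untreated culture 3 and 4 in KCl culture 4, and no difference could be followed on a CDS with no listed read.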
